A study of Rattus norvegicus with 45 samples.

Results

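The solute carrier 25 family was followed in the brain of rats treated with an antipsychotic drug. All genes whose symbol in the array annotation begins with Slc25a were taken as members, each by the probe set with the highest mean over all arrays. This gave 41 of the 14225 genes on the array, measured by 60 probe sets, and 13 of these genes had several. A gene was tested where its mean lay at or above the 40th percentile of all probe sets. Of the members, 34 passed this filter, among 10253 genes tested. Slc25a21, Slc25a31, Slc25a32, Slc25a35, Slc25a41, Slc25a45 and Slc25a48 did not pass and were not tested. The probe set of Slc25a51 is annotated to 2 gene identifiers, and Slc25a51l1 is a near copy of the same gene, so that the signal of these 2 members may be shared and is uncertain. Slc25a5, Slc25a36 and Slc25a39 have pseudogene copies, and their values are uncertain for the same reason.

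Proteins of the family sit mostly in the inner mitochondrial membrane and exchange nucleotides, phosphate, amino acids, carboxylates, cofactors and metals between matrix and cytosol. Some carry calcium-binding domains, so that cytosolic calcium can set their rate. In the brain, the aspartate and glutamate exchangers serve the malate-aspartate shuttle, the ADP/ATP exchangers deliver mitochondrial ATP, and glutamate carriers feed glutamate to the matrix.

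Frontal cortex, hippocampus and striatum of 15 male Sprague-Dawley (SD) rats were profiled on 45 Affymetrix rat expression arrays, so that each rat gave all 3 regions. Osmotic minipumps were implanted at an age of 9 to 11 weeks and delivered vehicle, haloperidol at 0.25 mg/kg/d or risperidone at 5 mg/kg/d for 21 days, with 5 rats per group. Haloperidol blocks dopamine D2-type receptors and risperidone blocks these and serotonin receptors, and each was given at a single dose. The tissue was snap-frozen and microdissected, and 1 label field calls it mouse although the organism, the strain and the array are those of the rat. Values are log2 of the deposited intensity after Robust Multi-array Average (RMA) normalization. An array gives no read depth, so that the number of rats limits the precision.

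Markers of cell types followed the labelled regions. The mean of 5 measured markers of striatal projection neurons had a median of 11.7 in striatum, against 6.72 in frontal cortex and 6.48 in hippocampus. The 4 measured pyramidal neuron markers had medians of 6.17, 9.18 and 9.76 in the same order, and the 2 measured hippocampal granule neuron markers were highest in hippocampus (7.81, against 6.26 in frontal cortex and 6.12 in striatum). Of the 45 arrays, 12 stood over 1 log2 unit above their region in markers of a neighboring tissue. The striatal change of Slc25a25 and the called differences of a drug effect between regions were also examined without them. In frontal cortex, the mean of 3 measured olfactory bulb markers ran up to 6.78 after vehicle, 8.46 after haloperidol and 9.55 after risperidone. Drug changes within frontal cortex are not given without these arrays. In tissue homogenates, fewer cells of a type and less RNA per cell cannot be told apart.

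The promoters of 2 members are shown because they are the members with a palindromic cAMP response element, TGACGTCA, within 250 bases upstream of the annotated start. RefSeq windows (GRCr8) were matched for 35 of the 41 members, and the element was sought on both strands. It was found in 2 of these 35 genes and in 1.78% of the 27457 genes with a window, counting a gene with several windows once. The lines run 5′ to 3′ on the strand of the gene up to the base before the start, with the element in capitals. The window of Slc25a25 covers chr3:36116582-36116831 on the minus strand, and that of Slc25a33 covers chr5:165502974-165503223 on the minus strand.
Slc25a25: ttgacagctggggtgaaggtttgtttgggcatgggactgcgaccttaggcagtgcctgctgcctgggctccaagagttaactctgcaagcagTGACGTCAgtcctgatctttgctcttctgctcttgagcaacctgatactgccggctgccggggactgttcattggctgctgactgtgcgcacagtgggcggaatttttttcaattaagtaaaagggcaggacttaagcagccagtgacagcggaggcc
Slc25a33: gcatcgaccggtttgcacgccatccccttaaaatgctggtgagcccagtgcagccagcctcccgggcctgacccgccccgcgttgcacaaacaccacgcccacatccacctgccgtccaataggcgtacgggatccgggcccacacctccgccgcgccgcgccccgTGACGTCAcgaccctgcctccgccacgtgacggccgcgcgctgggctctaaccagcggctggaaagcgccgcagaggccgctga
The element begins 158 bases before the start in Slc25a25 and 84 bases before it in Slc25a33. The shorter sequence TGACG, on either strand, was present in 8 of the 35 members and in 5480 of the 27457 genes. A match of letters describes the sequence only.

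Slc25a25 was the only member called in any comparison of a drug with vehicle, and it fell in striatum after both drugs. It encodes a calcium-regulated carrier that exchanges ATP-Mg for phosphate. In vehicle rats, striatal Slc25a25 stood at 9.34, 9.29, 9.37, 9.14 and 9.45. After haloperidol it stood at 8.72, 8.81, 8.65, 8.87 and 8.56. After risperidone it stood at 8.87, 8.41, 8.47, 8.91 and 8.66. All 5 rats of each drug lay below all 5 vehicle rats, while the 2 drug groups overlapped. The log2 change was -0.59 after haloperidol (standard error 0.08, 95% interval -0.75 to -0.44, 1.51-fold, adjusted p = 4.3e-05 from limma) and -0.65 after risperidone (standard error 0.08, 95% interval -0.81 to -0.50, 1.57-fold, adjusted p = 1.42e-06). It was the 1 of 34 members called lower after haloperidol, where 0.215% of all genes were called lower, and the 1 of 34 called lower after risperidone, where the share of all genes was 2%. Both comparisons used the same vehicle rats. A two-sided exact permutation test over the 10 rats gave p = 0.00794 for each drug, the smallest value that 5 against 5 allow, and adjusted p = 0.0238 over the 6 drug comparisons of this gene. The gene was chosen with its striatal fall known, and the permutation p-values do not account for that choice. The haloperidol call was lost when striatum was fitted on its own 15 arrays (adjusted p = 0.119), and the risperidone call was kept (adjusted p = 0.0101).

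**Figure D1:**
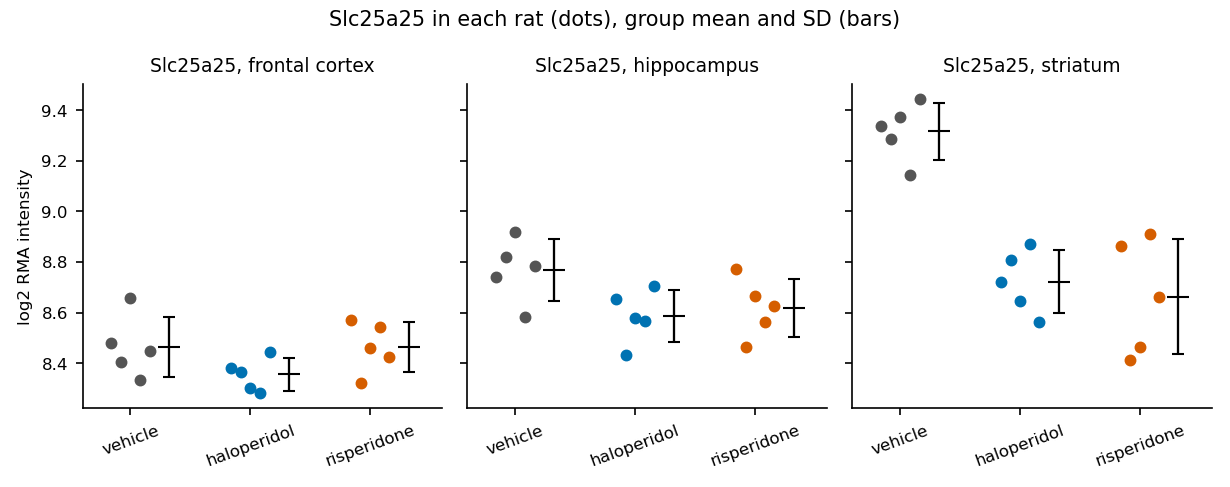
Log2 RMA intensity of Slc25a25 (vertical axis) in each rat by treatment (horizontal axis) and region (panels), with the group mean and SD beside the dots. In striatum the vehicle rats sit between 9.14 and 9.45 and all drug-treated rats at or below 8.91, while the groups overlap in frontal cortex and hippocampus.

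Markers of several cell types also varied between striatal arrays and differed in mean between treatments, with overlap of the groups. Pyramidal neuron markers had striatal means of 5.812 after vehicle, 6.63 after haloperidol and 6.531 after risperidone. Oligodendrocyte markers had means of 12.075, 12.319 and 12.303 in the same order, and striatal projection neuron markers 11.73, 11.575 and 11.476. The mean of 4 of 5 listed pyramidal neuron markers ran from 5.44 to 6.21 in striatum of vehicle rats, from 5.77 to 7.37 after haloperidol and from 5.48 to 8.05 after risperidone, against 8.99 to 9.44 in frontal cortex. Its highest striatal values were in risperidone replicate 3 and haloperidol replicate 5, where Slc25a25 stood at 8.47 and 8.56. The lowest Slc25a25 value, 8.41, was in risperidone replicate 2, which did not stand apart in these markers. With this mean as a covariate in striatum, the change of Slc25a25 was -0.48 after haloperidol (adjusted p = 0.356) and -0.55 after risperidone (adjusted p = 0.0224). The mean of 5 striatal projection neuron markers ran from 11.59 to 11.82 in vehicle rats, from 11.44 to 11.73 after haloperidol and from 10.63 to 11.79 after risperidone, lowest in replicate 3. That of 5 oligodendrocyte markers ran from 11.96 to 12.22, from 12.05 to 12.48 and from 11.98 to 12.50 in the same order. The part of these 2 lists in the change of Slc25a25 was not tested. Without the 12 arrays that stood apart, the change of Slc25a25 was -0.56 (adjusted p = 0.0172) and -0.62 (adjusted p = 0.0017), with 3 rats left in each striatal group.

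The fall was larger in striatum than in frontal cortex after each drug. In frontal cortex, Slc25a25 stood at 8.48, 8.41, 8.66, 8.33 and 8.45 after vehicle, at 8.38, 8.37, 8.30, 8.28 and 8.45 after haloperidol and at 8.57, 8.32, 8.46, 8.54 and 8.42 after risperidone. These cortical groups overlapped, with changes of -0.11 (standard error 0.08, adjusted p = 0.542) and 0.00 (standard error 0.08, 95% interval -0.16 to 0.16). In hippocampus it stood at 8.74, 8.82, 8.92, 8.58 and 8.78 after vehicle, at 8.65, 8.43, 8.58, 8.56 and 8.70 after haloperidol and at 8.77, 8.46, 8.66, 8.56 and 8.63 after risperidone. All 10 drug-treated hippocampi lay below the vehicle median, with overlap, and the changes of -0.18 (adjusted p = 1) and -0.15 (adjusted p = 0.325) did not pass. The risperidone change in striatum minus that in frontal cortex was -0.65 (standard error 0.10, adjusted p = 3.67e-04) and minus that in hippocampus -0.50 (standard error 0.10, adjusted p = 0.00707). The haloperidol change in striatum minus that in frontal cortex was -0.49 (standard error 0.10, adjusted p = 0.0398), and Slc25a25 was the 1 gene of 10253 called lower there (0.00975%). That test uses the striatal values for which the gene was chosen, so that its outcome is not independent of the choice. The difference of -0.41 between striatum and hippocampus after haloperidol did not pass (adjusted p = 0.198). The call for haloperidol against frontal cortex was lost without any of 10 of the 15 rats, taken singly (the largest adjusted p, 0.44, came when haloperidol replicate 5 was omitted). Without the arrays that stood apart it and the call for risperidone against hippocampus were lost (adjusted p = 0.327 and 0.139).

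Haloperidol and risperidone did not differ in striatal Slc25a25 beyond their error. The difference, risperidone minus haloperidol, was -0.06 (95% interval -0.22 to 0.10, adjusted p = 1). Across the 3 comparisons of risperidone with haloperidol, none of the 34 members was called by limma. Of all genes, 0.878% were called in frontal cortex, 0% in hippocampus and 0% in striatum, and at an unadjusted p under 0.05 there were 5, 2 and 3 members, beside 23.5%, 5.55% and 3.76% of all genes. Slc25a33, a carrier of pyrimidine nucleotides, came nearest in frontal cortex, 0.18 higher after risperidone than after haloperidol (adjusted p = 0.0494) but under 1.2-fold. Slc25a27 (0.16, adjusted p = 0.136) and Slc25a14 (0.12, adjusted p = 0.218) followed it there. In hippocampus the smallest p values were those of Slc25a20 (0.18), Slc25a11 (0.12) and Slc25a38 (0.12), each with adjusted p = 0.809. In striatum they were those of Slc25a18 (0.36), Slc25a51l1 (-0.16) and Slc25a33 (0.11), each with adjusted p = 1.

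Activity-regulated genes, such as Fos, Arc and Egr1, were called lower in frontal cortex as well as in striatum. Of 10 measured genes of this kind, 2 fell in striatum after haloperidol and 7 after risperidone, where 0.215% and 2% of all genes were called lower. In frontal cortex 3 and 9 fell, where 0.0975% and 1.37% of all genes were called lower, while none was called in hippocampus (3 and 8 at an unadjusted p under 0.05). The list was written with earlier results of these data known. In frontal cortex after risperidone the median change of these genes was -0.91, beside a change of 0.00 for Slc25a25. Over the 15 rats of a region, after the treatment means were subtracted, Slc25a25 and the mean of the list had a Pearson correlation of 0.40 in frontal cortex (permutation p = 0.136, adjusted over 3 regions 0.409; Spearman 0.25, permutation p = 0.376, adjusted 0.464). In hippocampus it was -0.18 (permutation p = 0.518, adjusted 0.518; Spearman -0.20, permutation p = 0.464, adjusted 0.464). In striatum it was 0.26 (permutation p = 0.355, adjusted 0.518; Spearman 0.23, permutation p = 0.406, adjusted 0.464). Without the 2 rats whose list mean, with treatment means subtracted, lay farthest from the median, the values were -0.22, -0.17 and 0.16. The cortical value thus rested on those rats.

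Among the other carriers in striatum, no member was called, and at an unadjusted p under 0.05 there were 3 of 34 members after haloperidol (14.9% of all genes) and 7 after risperidone (21.4% of all genes), Slc25a25 among them. Slc25a33 stood at 8.96, 8.85, 8.88, 8.84 and 8.91 in vehicle rats and at 8.72, 8.68, 8.66, 8.69 and 8.72 after haloperidol. Every haloperidol value lay below every vehicle value, yet the change of -0.19 (standard error 0.05, 1.14-fold) did not pass (adjusted p = 0.0694). After risperidone it stood at 8.76, 8.87, 8.82, 8.78 and 8.79, which overlapped with vehicle. Slc25a14, an uncoupling protein relative of the brain, stood at 9.16, 9.17, 9.22, 9.24 and 9.17 in vehicle rats and at 8.89, 8.97, 9.02, 9.04 and 9.03 after risperidone. These groups did not overlap, and the change of -0.20 (standard error 0.05) passed the adjusted p (0.0228) but not the 1.2-fold threshold. Drug and vehicle groups in striatum did not overlap for 2 members after haloperidol (3.48% of all genes) and 2 after risperidone (3.54% of all genes). Slc25a17, a peroxisomal rather than mitochondrial carrier of coenzyme A and related cofactors, had changes of -0.11 after haloperidol (adjusted p = 0.324) and -0.15 after risperidone (adjusted p = 0.0945).

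Slc25a18, which carries glutamate with a proton and is known as an astrocyte gene, had the highest change after risperidone in striatum without being called. It stood at 7.91, 7.34, 7.67, 7.47 and 7.69 in striatum of vehicle rats and at 7.59, 7.79, 9.07, 8.15 and 7.85 after risperidone. The groups overlapped, and risperidone replicate 3 lay far above the other 4. The change of 0.47 (standard error 0.15, adjusted p = 0.0559) became 0.23 (adjusted p = 0.358) without that rat. In vehicle rats this gene was higher in frontal cortex, at 9.46, 9.67, 9.38, 9.27 and 9.48, and the same striatal array stood 1.72 above the striatal mean in pyramidal neuron markers. The mean of 6 astrocyte markers ran from 10.24 to 10.36 in striatum of vehicle rats and from 10.30 to 10.65 after risperidone. The part of the astrocyte markers in the change of Slc25a18 was not tested. A striatal fit with the pyramidal neuron markers as a covariate was run, and its values for Slc25a18 are not given here.

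In frontal cortex and hippocampus no member was called after either drug by limma. The shares of all genes called were 0.146% after haloperidol and 3.3% after risperidone in frontal cortex, and 0% and 0.117% in hippocampus. At an unadjusted p under 0.05 there were 4 and 7 of the 34 members in frontal cortex, beside 12.6% and 23.9% of all genes, and 3 and 2 in hippocampus, beside 3.45% and 16.3%. The median change of the 34 members for haloperidol and then risperidone was -0.02 and 0.06 in frontal cortex (all genes -0.03 and 0.04), 0.01 and 0.06 in hippocampus (all genes 0 and 0.03) and -0.02 and -0.01 in striatum (all genes -0.02 and -0.02).

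**Figure D2:**
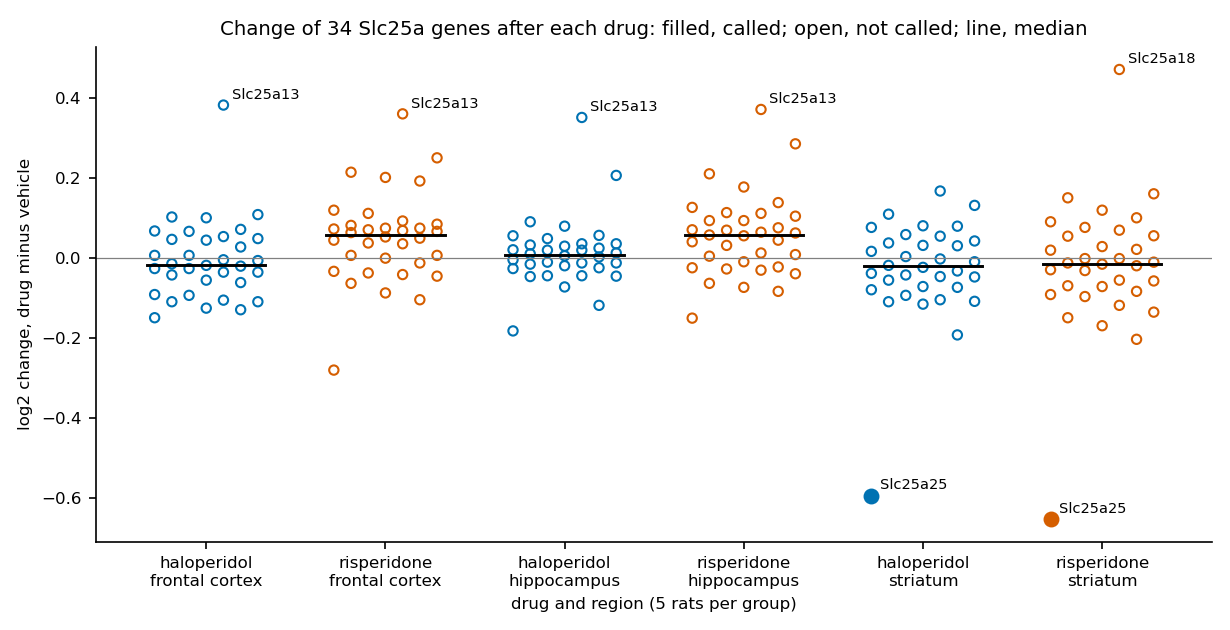
Log2 change against vehicle (vertical axis) of the 34 tested members, by drug and region (horizontal axis). Filled dots mark called members, open dots the others and lines the median: Slc25a25 lies at -0.59 and -0.65 in striatum, and the other members lie between -0.28 and 0.47.

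Slc25a13, a calcium-regulated exchanger of aspartate and glutamate, was the member with the highest change in 4 comparisons and passed in none. In frontal cortex it stood at 5.85, 6.21, 5.92, 6.02 and 5.51 after vehicle, 6.14, 5.95, 6.38, 6.52 and 6.43 after haloperidol and 6.31, 6.79, 6.13, 6.01 and 6.07 after risperidone. The lowest vehicle rat was replicate 5, and both drug groups overlapped with vehicle. The cortical vehicle mean, 5.90, was close to the filter of 5.88, so that the size of these changes is uncertain. The changes were 0.38 (standard error 0.14, adjusted p = 0.22) and 0.36 (adjusted p = 0.11). In hippocampus it stood at 6.03, 6.09, 6.42, 6.24 and 6.38 after vehicle, 6.41, 6.86, 6.56, 6.19 and 6.91 after haloperidol and 6.64, 6.63, 6.58, 6.81 and 6.37 after risperidone. Again the groups overlapped, with changes of 0.35 (adjusted p = 1) and 0.37 (adjusted p = 0.179). The striatal changes were 0.06 and 0.03. A second, dimmer probe set of this gene gave smaller changes of 0.13 and 0.06 in frontal cortex and 0.16 and 0.21 in hippocampus, and larger ones of 0.18 and 0.13 in striatum, none of them called. The comparisons of a region share their vehicle rats.

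**Figure D3:**
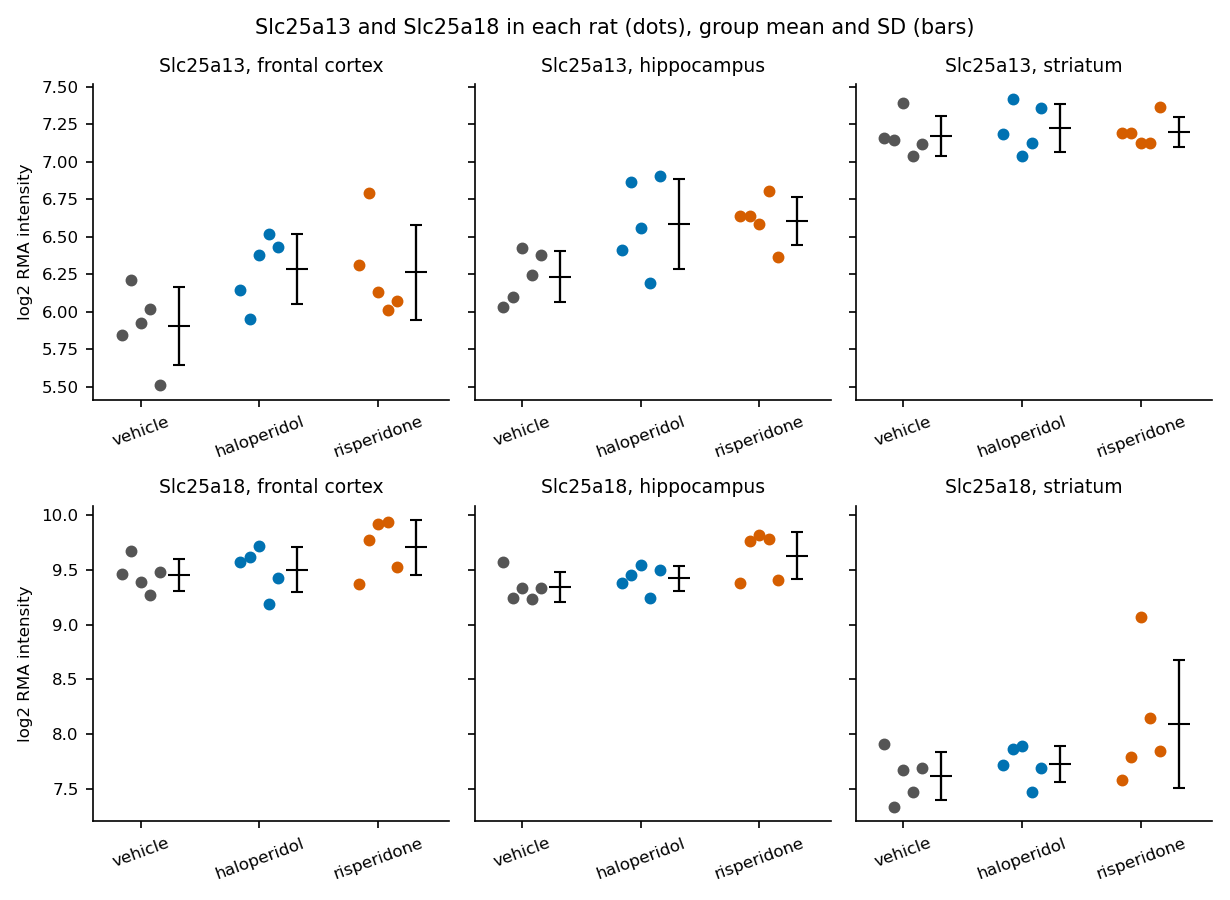
Log2 RMA intensity of Slc25a13 and Slc25a18 (vertical axes) in each rat by treatment (horizontal axis) and region (panels), with the group mean and SD. All groups overlap with vehicle, and in the last panel risperidone replicate 3 stands at 9.07 while the other 4 risperidone rats lie between 7.59 and 8.15.

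Slc25a38, Slc25a53 and Slc25a16 came near the threshold in frontal cortex after risperidone, and the other members given here did not. Olfactory bulb markers stood apart in cortices of haloperidol replicate 5 and risperidone replicates 2 and 5, and the changes here include those arrays. Slc25a38, a glycine carrier needed for heme synthesis, stood at 7.15, 7.08, 7.12, 7.13 and 7.20 in frontal cortex of vehicle rats and at 7.41, 7.23, 7.48, 7.31 and 7.26 after risperidone. These groups did not overlap, as in 6.05% of all genes, and the change of 0.20 (standard error 0.06) passed the adjusted p (0.0447) but was under 1.2-fold. Slc25a53, a carrier whose substrate is not settled, had a change of 0.19 (adjusted p = 0.061). Slc25a16, which has been linked to coenzyme A transport, stood at 8.73, 8.50, 8.42, 8.56 and 8.50 in frontal cortex of vehicle rats and at 8.15, 8.60, 8.30, 8.18 and 8.09 after risperidone. All risperidone rats but replicate 2 lay below all vehicle rats, and the change of -0.28 (standard error 0.09) did not pass (adjusted p = 0.063). After haloperidol, the smallest p values in frontal cortex were those of Slc25a46, a protein of the outer membrane (-0.13, adjusted p = 0.214), Slc25a13 and Slc25a14 (-0.13, adjusted p = 0.291). In hippocampus, Slc25a16 was 0.21 higher after haloperidol (adjusted p = 1), without overlap, as in 1.16% of all genes. After risperidone Slc25a17 was 0.13 higher there (adjusted p = 0.229) and the citrate carrier gene Slc25a1 was 0.11 higher (adjusted p = 0.319).

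Besides Slc25a25, 3 members had a risperidone effect that differed between regions. The effect on Slc25a38 in striatum minus that in frontal cortex was -0.30 (standard error 0.08, adjusted p = 0.0273), and Slc25a25 and Slc25a38 were the 2 of 34 members called lower there, against 2.22% of all genes. In striatum, Slc25a38 stood at 7.18, 7.05, 7.04, 7.23 and 7.16 after vehicle and at 7.11, 7.15, 6.96, 6.94 and 7.04 after risperidone, a change of -0.10 (adjusted p = 0.361), beside the 0.20 in frontal cortex. The effect on Slc25a17 in striatum minus that in hippocampus was -0.28 (standard error 0.07, adjusted p = 0.0271), the second of 2 members called lower, against 1.08% of all genes. Slc25a17 stood at 9.87, 9.78, 9.79, 9.81 and 9.76 in striatum after vehicle and 9.64, 9.82, 9.47, 9.63 and 9.71 after risperidone. In hippocampus it stood at 9.76, 9.73, 9.78, 9.72 and 9.78 after vehicle and 9.85, 9.99, 9.84, 9.98 and 9.76 after risperidone. Striatal values were thus mostly lower and hippocampal values mostly higher than in vehicle rats, with overlap in both regions. The effect on Slc25a16 in hippocampus minus that in frontal cortex was 0.46 (standard error 0.12, adjusted p = 0.0397), the 1 member called higher, against 0.751% of all genes. In hippocampus, Slc25a16 stood at 8.32, 8.23, 8.28, 8.27 and 8.11 after vehicle and 8.45, 8.63, 8.32, 8.31 and 8.39 after risperidone. Without the arrays that stood apart, which left 2 cortices, 3 hippocampi and 3 striata of risperidone rats, these differences were -0.29 for Slc25a38, -0.21 for Slc25a17 and 0.45 for Slc25a16 and were not called (adjusted p = 0.211, 0.307 and 0.0855). With single rats left out they ran from -0.35 to -0.24, from -0.32 to -0.24 and from 0.42 to 0.50, and were called in 10, 9 and 9 of 15 fits (adjusted p up to 0.112 without risperidone replicate 3, 0.0763 without vehicle replicate 4 and 0.12 without risperidone replicate 5). For haloperidol, no member was called between striatum and hippocampus or between hippocampus and frontal cortex (4 and 1 at an unadjusted p under 0.05, beside 7.37% and 7.84% of all genes), where 0% and 0% of all genes were called.

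**Figure D4:**
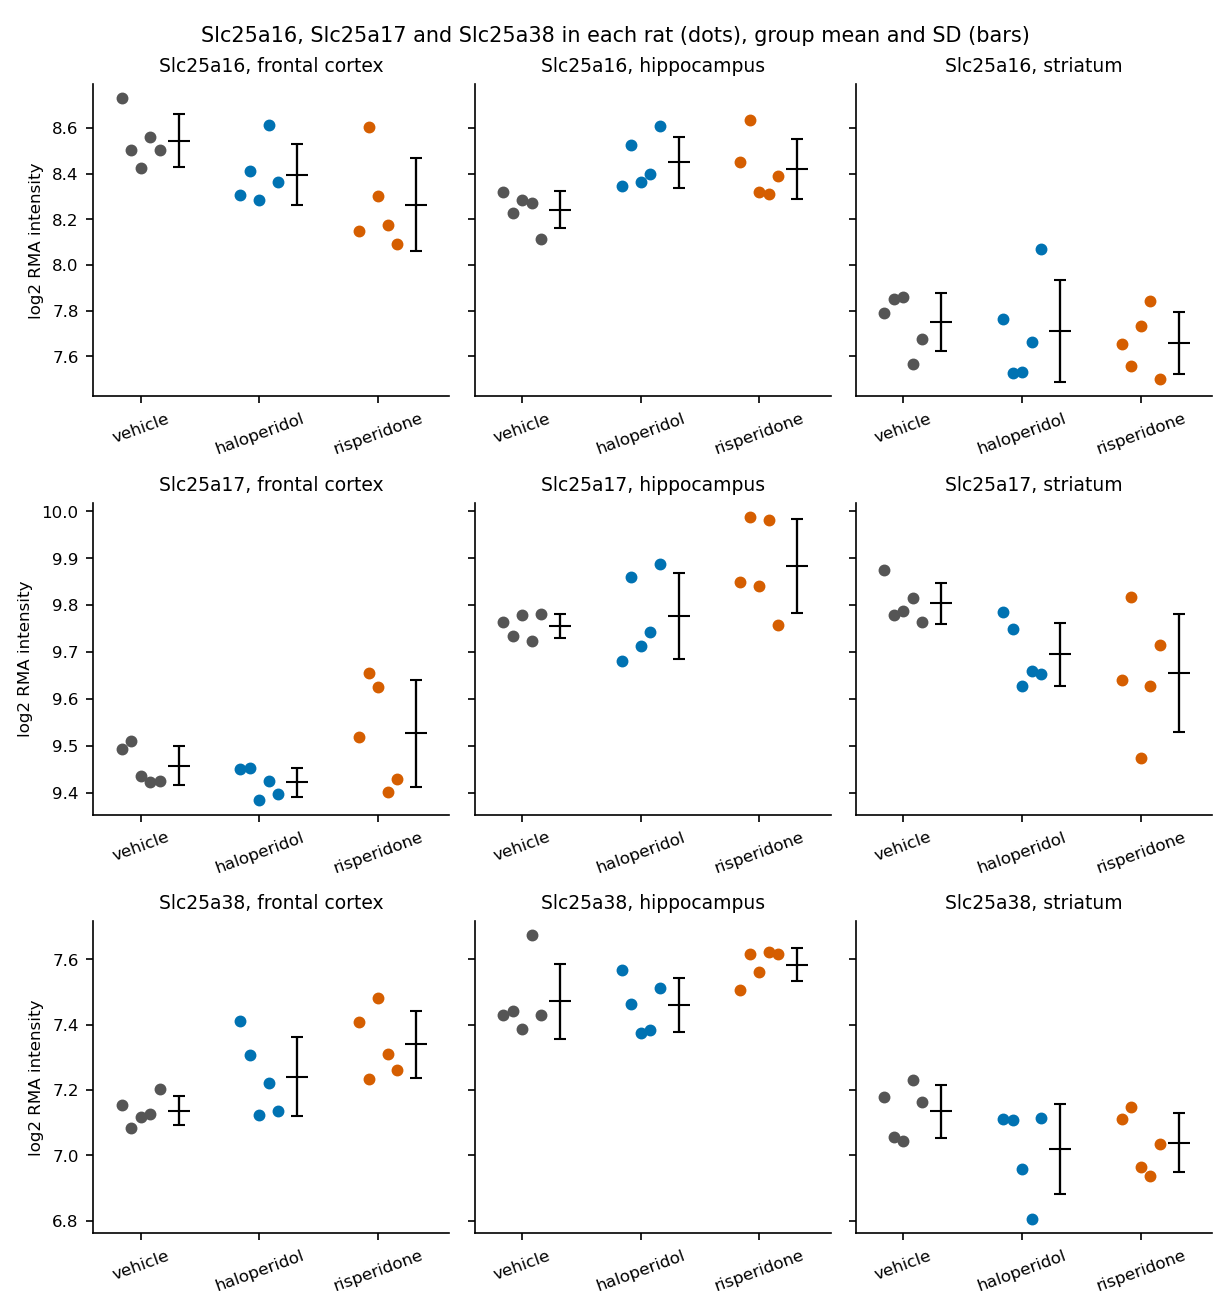
Log2 RMA intensity of Slc25a16, Slc25a17 and Slc25a38 (vertical axes) in each rat by treatment (horizontal axis) and region (panels), with the group mean and SD. Risperidone values of Slc25a16 lie between 8.09 and 8.60 in frontal cortex and between 8.31 and 8.63 in hippocampus, against vehicle values of 8.42 to 8.73 and 8.11 to 8.32.

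The remaining members are given by role, with the range of their changes over the 6 comparisons of a drug with vehicle, none of which passed. The phosphate carrier Slc25a3 ran from -0.07 to 0.04, and the ADP/ATP exchangers Slc25a4 and Slc25a5 ran from -0.01 to 0.06 and from 0.00 to 0.09. The paralogs of Slc25a25 that carry ATP-Mg and phosphate, Slc25a23 and Slc25a24, ran from -0.06 to 0.08 and from -0.07 to 0.22 (highest in frontal cortex after risperidone, adjusted p = 0.0896). Slc25a12, the aspartate and glutamate exchanger of neurons, ran from -0.14 to 0.07, and the glutamate carrier Slc25a22 from -0.07 to 0.16. Among di- and tricarboxylate carriers, the dicarboxylate carrier Slc25a10 ran from 0.03 to 0.15 and the oxoglutarate and malate exchanger Slc25a11 from -0.08 to 0.09. The uncoupling protein relatives Slc25a27 and Slc25a30 ran from -0.12 to 0.05 and from -0.06 to 0.11.

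The carriers of amino acids and carnitine were not called either. Slc25a15, the ornithine carrier, ran from -0.02 to 0.21, Slc25a20, the carnitine and acylcarnitine exchanger, from -0.09 to 0.14, and Slc25a29, a carrier of basic amino acids, from -0.05 to 0.08. Slc25a44, which imports branched-chain amino acids, ran from -0.04 to 0.08. Among cofactor and metal carriers, the mitoferrins Slc25a28 and Slc25a37 import iron and ran from -0.05 to 0.09 and from -0.17 to 0.06, and the pyrimidine nucleotide carrier Slc25a36 ran from -0.07 to 0.03. The glutathione carrier Slc25a39 ran from -0.04 to 0.07, the coenzyme A carrier Slc25a42 from 0.01 to 0.09, and the NAD carrier Slc25a51 and its copy Slc25a51l1 from -0.05 to 0.08 and from -0.12 to 0.04. Slc25a34, whose substrate is not settled, ran from -0.03 to 0.10.

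Genes that work with the carriers were counted in the same fit. The list held 28 genes: uncoupling proteins and carrier-like proteins outside the symbol rule, enzymes of the malate-aspartate shuttle, the porins of the outer membrane, the import machinery for carriers, and the pyruvate carrier with the calcium uniporter. Of these, 25 were tested, and none was called after either drug in any region or between the drugs. The share of all genes called in these comparisons was at most 3.3%. An unadjusted p under 0.05 was seen for 1 gene with haloperidol and 5 with risperidone in frontal cortex, beside 12.6% and 23.9% of all genes. There were 0 and 4 in hippocampus (3.45% and 16.3% of all genes) and 1 and 1 in striatum (14.9% and 21.4%). Between the drugs there were 5, 3 and 0 in the same order of regions, beside 23.5%, 5.55% and 3.76% of all genes. The median change of the 25 genes was between -0.03 and 0.05 in the comparisons with vehicle.

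The regional pattern of the carriers was read in the 5 vehicle rats, where the largest difference was -1.83 on the log2 scale, against -0.65 for the largest drug change. Hippocampal arrays stood above the others from the 25th percentile of intensity upwards. Their median intensity ran from 106.7 to 110.4, against 89.9 to 93.1 in frontal cortex and 87.9 to 92.1 in striatum, and no source used here says whether the regions were normalized in 1 run. The median difference over all genes was accordingly 0.25 between hippocampus and frontal cortex and -0.30 between striatum and hippocampus, against -0.06 between striatum and frontal cortex. Regional differences are therefore given on the deposited scale and again with each array centred on its median. The shares of all genes called are those of the deposited scale. Counts with arrays centred or quantile normalized have no share beside them and cannot be set against all genes. Differences of a drug effect between regions contain no constant shift of a region.

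Between striatum and frontal cortex, 6 of 34 members were higher and 9 lower in striatum, against 17.7% and 26.4% of all genes. All 15 kept their direction and their call with arrays centred. After quantile normalization 12 of them did, and the split was 7 higher and 6 lower: Slc25a14 (-0.13), Slc25a23 (-0.18) and Slc25a36 (-0.21) kept their direction but fell under 1.2-fold, and Slc25a28 (0.31) was called higher. The carriers of aspartate and glutamate led in both directions. Values of the 2 regions did not overlap for 16 of 34 members, beside 48.4% of all genes. Slc25a18 stood at 7.91, 7.34, 7.67, 7.47 and 7.69 in striatum and at 9.46, 9.67, 9.38, 9.27 and 9.48 in frontal cortex, without overlap, a difference of -1.83 (standard error 0.13, adjusted p = 1.21e-15; centred -1.82). Slc25a22 stood at 8.98, 9.06, 8.95, 9.13 and 8.98 in striatum and at 10.30, 10.16, 10.31, 10.29 and 10.18 in frontal cortex, also without overlap, a difference of -1.23 (standard error 0.06, adjusted p = 3.6e-21; centred -1.22). Slc25a13 went the other way, at 7.16, 7.14, 7.39, 7.04 and 7.12 in striatum and 5.85, 6.21, 5.92, 6.02 and 5.51 in frontal cortex, a difference of 1.27 (standard error 0.12, adjusted p = 6.54e-12; centred 1.28), while its homolog Slc25a12 was not called. A second probe set of Slc25a13 gave a difference of 0.76, and the cortical mean of the first, 5.90, was close to the filter of 5.88.

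Slc25a25 had the second largest rise, at 0.85 (standard error 0.07, adjusted p = 2.93e-14; centred 0.86), and its striatal and cortical values did not overlap. The lowest striatal haloperidol value, 8.56, was still above the highest cortical haloperidol value, 8.45. Its paralog Slc25a23 was lower in striatum (-0.32, adjusted p = 3.11e-05), by the brightest of its 3 probe sets, while the others gave -0.26 and -0.04 and were not called. Also lower were Slc25a16 (-0.80), Slc25a46 (-0.50), Slc25a27 (-0.42), Slc25a44 (-0.39), Slc25a36 (-0.36) and Slc25a14 (-0.27). Of the uncoupling protein relatives, Slc25a27 and Slc25a14 were thus lower in striatum and Slc25a30 higher. Higher in striatum were further Slc25a1 (0.43), Slc25a17 (0.35) and Slc25a5 (0.32), the ADP/ATP exchanger found in most tissues, while the exchanger Slc25a4 (-0.24) missed 1.2-fold.

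The striatal call of Slc25a30 rested on 1 vehicle rat. It stood at 8.47, 7.39, 7.28, 7.40 and 7.22 in striatum and at 7.15, 7.13, 7.09, 7.21 and 7.17 in frontal cortex of vehicle rats. All striatal values lay above all cortical ones, and replicate 1 lay over 1 log2 unit above the other striatal values. Without that rat the difference of 0.40 (adjusted p = 0.00946) became 0.17 (adjusted p = 0.172). Replicate 1 also had the highest striatal mean of 3 measured choroid plexus and meningeal markers of 6 listed, at 10.98. Haloperidol replicate 1, with a marker mean of 10.82, had a striatal Slc25a30 of 8.25 where the other haloperidol rats ran up to 7.48. Risperidone replicate 5, with a marker mean of 10.24, had a Slc25a30 of 7.73, and vehicle replicate 4, at 9.36, had 7.40. The striatal marker mean ran from 6.57 to 10.98 in vehicle rats, from 6.48 to 10.82 after haloperidol and from 7.14 to 10.24 after risperidone. The part of these markers in the level of Slc25a30 was not tested.

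**Figure D5:**
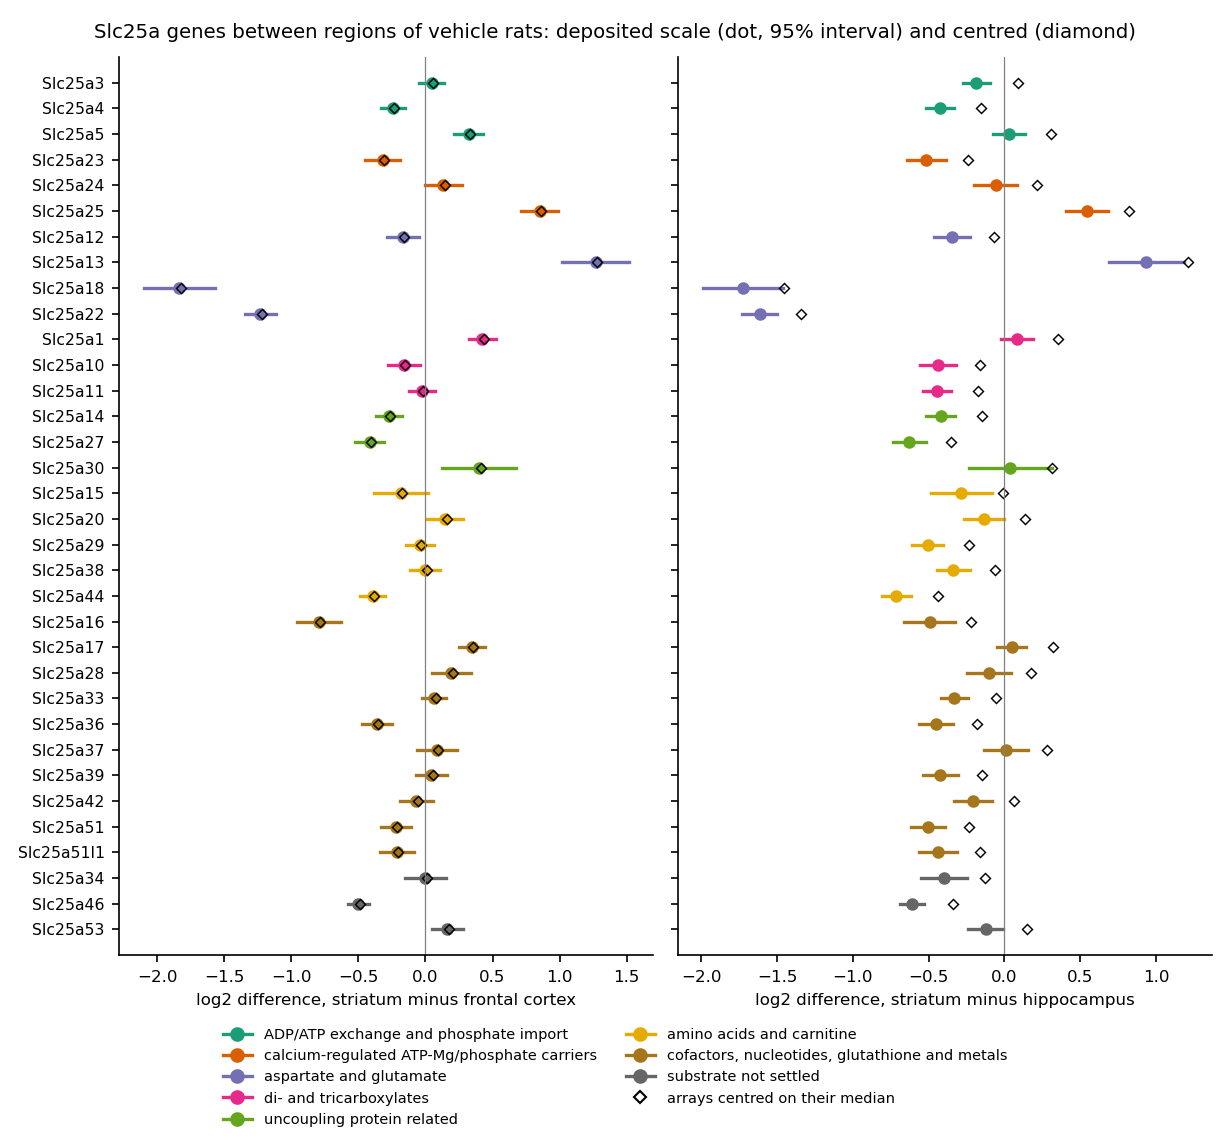
Log2 difference (horizontal axes) of each tested member (vertical axis) between striatum and frontal cortex and between striatum and hippocampus in vehicle rats, with 95% intervals, colored by role. Diamonds give the difference with arrays centred on their median: Slc25a18 and Slc25a22 lie farthest left and Slc25a13 and Slc25a25 farthest right in both panels under both scales.

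Between striatum and hippocampus, 2 members were higher and 21 lower in striatum, against 8.08% and 54% of all genes on the deposited scale. The split became 7 higher and 5 lower with arrays centred. The 7 members called the same way on both scales were Slc25a13, Slc25a18, Slc25a22, Slc25a25, Slc25a27, Slc25a44 and Slc25a46. The difference, striatum minus hippocampus, was -1.72 for Slc25a18 (centred -1.45) and -1.62 for Slc25a22 (centred -1.34). It was 0.94 for Slc25a13 (centred 1.21) and 0.55 for Slc25a25 (centred 0.82). Lower on both scales were Slc25a44 (-0.71, centred -0.44), Slc25a27 (-0.63, centred -0.35) and Slc25a46 (-0.61, centred -0.34). Slc25a23 had a difference of -0.51 (centred -0.24) and was called on the deposited scale alone. With arrays centred, Slc25a1, Slc25a5, Slc25a17, Slc25a30 and Slc25a37 were called higher in striatum. The call of Slc25a30 includes striatal vehicle replicate 1 at 8.47 and is not given without that rat. Its striatal median, 7.39, lay below the hippocampal median of 7.51 on the deposited scale.

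Between hippocampus and frontal cortex, 19 members were higher and 1 lower in hippocampus, against 46.7% and 6.11% of all genes on the deposited scale. With arrays centred none was higher and 2 were lower. Slc25a16 was the member called lower on both scales (-0.30, adjusted p = 0.00126; centred -0.56). Slc25a18 was called lower with arrays centred (-0.37). The largest differences on the deposited scale were those of Slc25a39 (0.47, centred 0.20), Slc25a29 (0.46, centred 0.20), Slc25a11 (0.42, centred 0.16), Slc25a34 (0.40, centred 0.14), Slc25a33 (0.40, centred 0.13) and Slc25a22 (0.39, centred 0.12). None of the 19 was called with arrays centred, so that no rise of a carrier in hippocampus over frontal cortex held under both scales.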

How the data were processed

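Frontal cortex, hippocampus and striatum of 15 rats were hybridized to 45 single-color arrays. The authors normalized the arrays by RMA, and the deposited values are linear intensities per probe set. The submitters' processing notes name R 2.7.2. No source used here says whether all regions were normalized in 1 run. Every column of the deposited table was assigned to a sample (0 columns were left unused). Symbols came from the platform annotation, and promoter windows from RefSeq (GRCr8).

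The log2 of the intensity was fitted with limma 3.58.1 in R 4.3.3, with 9 group means of region and treatment over all 45 arrays and rats entered as random blocks (estimated within-rat correlation 0.227). A mean log2 of at least the 40th percentile (5.88) was required, which left 18659 of 31099 probe sets. P-values were adjusted by Benjamini-Hochberg over the probe sets of each comparison, and a call required both 1.2-fold or more and an adjusted p below 0.05. Rose, fell, higher and lower counts refer to such calls. Exact permutation tests and permutation p-values (100000 permutations) used SciPy 1.17.1. The fit was tested on simulated data with known changes.

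The members, the lists of related genes, activity-regulated genes and markers, and the tests were chosen with earlier results of these data known, among them the fall of Slc25a25 in striatum. Members were named where called for a drug, where among the 3 smallest p in a drug comparison, where among the 6 largest called regional changes in a direction, and otherwise once by role. Alternatives were another filter, none, quantile normalization, centring, array weights, other blocks, other probe sets, each region alone with and without marker covariates, an adjusted p alone, and leaving out each rat. Replicate numbers did not pair rats across treatments (median correlation of same-numbered arrays -0.02, over 0.1 in 12 of 45 pairs), whereas the regions of 1 rat correlated at a median of 0.36 (over 0.1 in 44 of 45 pairs). Array data give no counting depth.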

Additional observations from a re-analysis of the deposited data

Results flagged for a closer look

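The tests of a difference in drug effect between regions passed for 4 members. For Slc25a25 the haloperidol effect in striatum minus that in frontal cortex was -0.49 on the log2 scale (adjusted p = 0.0398), the risperidone effect in striatum minus that in frontal cortex was -0.65 (adjusted p = 3.67e-04), and the risperidone effect in striatum minus that in hippocampus was -0.50 (adjusted p = 0.00707). For Slc25a38 the risperidone effect in striatum minus that in frontal cortex was -0.30 (adjusted p = 0.0273). For Slc25a17 the risperidone effect in striatum minus that in hippocampus was -0.28 (adjusted p = 0.0271). For Slc25a16 the risperidone effect in hippocampus minus that in frontal cortex was 0.46 (adjusted p = 0.0397).

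In each group of 5 rats of the 23 named members, the gap between the highest or lowest rat and its neighbor was set against the range of the group by Dixon's criterion, which chance passes in about 1 group of 20. It was passed in 17 of 207 groups. Slc25a30 stood apart in striatum in vehicle replicate 1 (8.47) and haloperidol replicate 1 (8.25), and in hippocampus in risperidone replicate 3 (7.94). In striatum the others were Slc25a13 in risperidone replicate 5 (7.36), Slc25a14 in haloperidol replicate 2 (9.24), Slc25a20 in vehicle replicate 1 (8.08), Slc25a34 in risperidone replicate 3 (6.46) and Slc25a44 in haloperidol replicate 1 (8.05). In hippocampus, Slc25a18 (9.57) and Slc25a22 (10.80) stood apart in vehicle replicate 1, Slc25a38 (7.67) and Slc25a39 (8.96) in vehicle replicate 4, and Slc25a51l1 in haloperidol replicate 3 (8.08). In frontal cortex, Slc25a11 stood apart in haloperidol replicate 3 (10.06) and risperidone replicate 2 (10.54), Slc25a20 in risperidone replicate 5 (7.48) and Slc25a5 in vehicle replicate 2 (11.94).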

How the results depend on the processing

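The fall of Slc25a25 in striatum after risperidone was called under each alternative run. After haloperidol it kept its direction but not its call with striatum alone (-0.59, adjusted p = 0.119, 0 members called), with the replicate number as a block added (-0.59, adjusted p = 0.287, 0 called), with pyramidal markers as a covariate (-0.48, adjusted p = 0.356, 0 called) and with choroid markers as a covariate (-0.60, adjusted p = 0.101, 0 called). The replicate block on region-wise fits changed the call of no other drug comparison from that of the region-wise fit. Leaving out the 12 arrays that stood apart and the choroid covariate were chosen after seeing the data.

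Counts of called members moved as follows. Array weights gave 1 for risperidone in frontal cortex (0 otherwise), 2 for risperidone in hippocampus (0 otherwise) and 1 for the haloperidol effect in striatum against hippocampus (0 otherwise). An adjusted p alone gave 1 for risperidone in frontal cortex, 2 in striatum, 1 between the drugs in frontal cortex and 23 between striatum and frontal cortex (15 with the fold). The filter at the 60th percentile and quantile normalization each gave 2 for risperidone in striatum (1 otherwise). Quantile normalization and centring each gave 2 between hippocampus and frontal cortex (20 as deposited) and 12 between striatum and hippocampus (23 as deposited), and under quantile normalization Slc25a12 and Slc25a33 turned sign in the latter. Between striatum and frontal cortex, quantile normalization left 12 of the 15 calls and added 1. For the haloperidol effect in striatum against frontal cortex (1), no filter, no rat block and leaving out the arrays apart each gave 0. For the risperidone effect in striatum against frontal cortex (2), no filter, quantile normalization, centring, no rat block and leaving out the arrays apart each gave 1. Against hippocampus (2), quantile normalization and no rat block gave 1 and leaving out the arrays apart gave 0. For hippocampus against frontal cortex (1), no filter, no rat block, the rat as a fixed block and leaving out the arrays apart each gave 0. The causes were not tested.

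With each rat left out in turn, Slc25a25 in striatum ranged from -0.64 to -0.56 after haloperidol and from -0.71 to -0.59 after risperidone. Called members ranged from 0 to 1 for risperidone in frontal cortex, from 1 to 2 for risperidone in striatum, from 12 to 16 between striatum and frontal cortex, from 17 to 20 between hippocampus and frontal cortex and from 22 to 23 between striatum and hippocampus. They ranged from 0 to 1 for the haloperidol effect in striatum against frontal cortex, from 1 to 3 for the risperidone effect in striatum against either region, and from 0 to 1 in hippocampus against frontal cortex. Among single named members, 37 results lost their call and 4 gained one, while 615 kept direction and side, beside 28, 6 and 866 when rats were left out. The correlation of Slc25a25 with activity-regulated genes in frontal cortex turned to -0.22 without the 2 farthest rats. The 7 members under the filter were not tested, and no background measurement was used.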
